A study of Mus musculus with 4 samples.

Results

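The genes described here are 43 genes of DNA replication and S phase, chosen by name: the parts of the replicative helicase, origin licensing and firing factors, the sliding clamp and its loader, primase and the replicative polymerases, nucleotide-supply enzymes and factors that rebuild chromatin behind the fork. A gene was included where a probe set of the mouse array was annotated to that gene alone, which held for 42 of the 43 genes and 94 probe sets, of 18193 genes and 45101 probe sets on the array. Chaf1a (a histone chaperone subunit) had no such probe set and was not analysed here. For Tyms (thymidylate synthase) a further probe set, shared with its pseudogene, fell outside the rule. All 42 genes had a signal above the floor of 189, the median of all signals, on each of the 4 arrays, so none entered through 1 bright group alone.

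RNA of 4 samples from C57BL6 mice was hybridised to 1 Affymetrix array each. Blood stem or precursor cells transduced with both AF4-MLL and MLL-AF4, the reciprocal fusions of MLL and AF4, had given rise to the mixed lineage leukemia. Such cells transduced with AF4-MLL alone had given rise to the leukemias labelled proB ALL (acute lymphoblastic leukemia) and B/T BAL (biphenotypic, typed as B and T). The fourth sample was normal bone marrow as the control. The leukemic marrow was taken from moribund mice after several months and typed by flow cytometry without sorting, so each array could also hold RNA of the host's other marrow cells. Each group is a single array, so a difference between 2 arrays has no replicate error, and the 3 comparisons with normal marrow share its 1 array. The labels give no ages, and signals below follow the order mixed lineage, proB, B/T, normal unless stated.

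Before S phase, the origin recognition complex, Cdc6 and Cdt1 load the MCM helicase onto DNA in an inactive form, a step called licensing. At the onset of S phase Cdc45 and the GINS complex join the helicase and activate it, primase and polymerase alpha start new strands, and polymerases epsilon and delta extend them with the help of the PCNA clamp. Many of these genes are transcribed as cells enter S phase under control of E2F factors, and in marrow they are markers of dividing precursors.

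The arrays shared a trimmed mean signal of 1000, and 46.3% to 57.4% of probe sets lay above the floor, the most on the mixed lineage array. The Actb 3'/5' ratio, which goes up as RNA degrades, was 2.47 to 4.72 in the leukemias and 1.87 in normal marrow, and its part in the results was not tested. Markers of red cell precursors set the arrays apart: the summed signal of 12 tested erythroid genes (of 14 listed) was 9786, 13503 and 18267 in the leukemias against 255855 in normal marrow, and 6, 9 and 5 of them lay below the floor in the leukemias. Alas2, the heme synthesis enzyme of red cells, had 263, 183 and 467 against 39547. The 7 tested early B-cell genes (of 9) summed to 3616 on the array labelled proB ALL against 32870 in normal marrow, and 4 of them, Vpreb1, Vpreb3, Igll1 and Ebf1, lay below the floor there, while the 8 natural killer genes summed to 148166 against 11431. On the B/T BAL array the early B-cell genes summed to 1387, the lowest of the 4 arrays, with Vpreb1, Igll1 and Ebf1 below the floor. All 7 were at least 2-fold lower than in normal marrow on both arrays, so the markers go against the B-cell part of both labels, which are kept here as names only. On the proB ALL array 6 tested T-cell genes (of 8) summed to 45112 against 3430 in normal marrow. There 3 of them were at least 2-fold higher and 3 lay below the floor. In B/T BAL the same T-cell genes summed to 152546 against 3430. There 5 stroma genes summed to 72430 against 7599 through Col1a2 (38648 against 2397) and Pdgfrb (30356 against 427), while Col1a1 had 655 against 624, Cxcl12 2592 against 3731 and Cdh5 179 against 419. In mixed lineage leukemia 9 neutrophil genes summed to 649522 against 403655 and 7 monocyte genes to 122667 against 37734. In such unsorted samples fewer cells of a type and less RNA per cell cannot be told apart, and the part of these cell types in the results below was not tested.

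As a group, the replication genes had lower signals on the mixed lineage and proB arrays than in normal marrow, and signals near normal on the B/T array. Differences are given as log2(signal + 51.4), leukemia minus normal marrow, and folds as ratios of signals. The median difference of the 42 genes was -0.84 for mixed lineage, -0.60 for proB and -0.09 for B/T, against 0.08, -0.11 and 0.05 over all 14012 tested genes. Of the 42 genes 41, 34 and 24 were lower by any amount, against 46.9%, 55.7% and 47.9% of all tested genes. In all 3 leukemias 21 genes were lower (19.2% of all tested genes) and 0 higher (19.1%). At least 2-fold lower (a log2 difference of -1 or less) were 12 genes (28.6%) for mixed lineage, 11 (26.2%) for proB and 4 (9.52%) for B/T. The background shares were 15.2%, 18.7% and 17.7% of all tested genes, and 1149, 1302 and 1387 of the 8835 genes above the floor on all arrays, where all 42 lay. With each gene taken as the mean over its probe sets, the counts in mixed lineage leukemia and proB ALL were 7 and 5. Beside the shares of all tested genes just given, the first then lay near the background and the second below it. The background was not counted anew for that choice. At least 2-fold higher were 0, 0 and 1 of the 42 genes, against 18.8%, 11.3% and 15.4% of all tested genes.

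**Figure D1:**
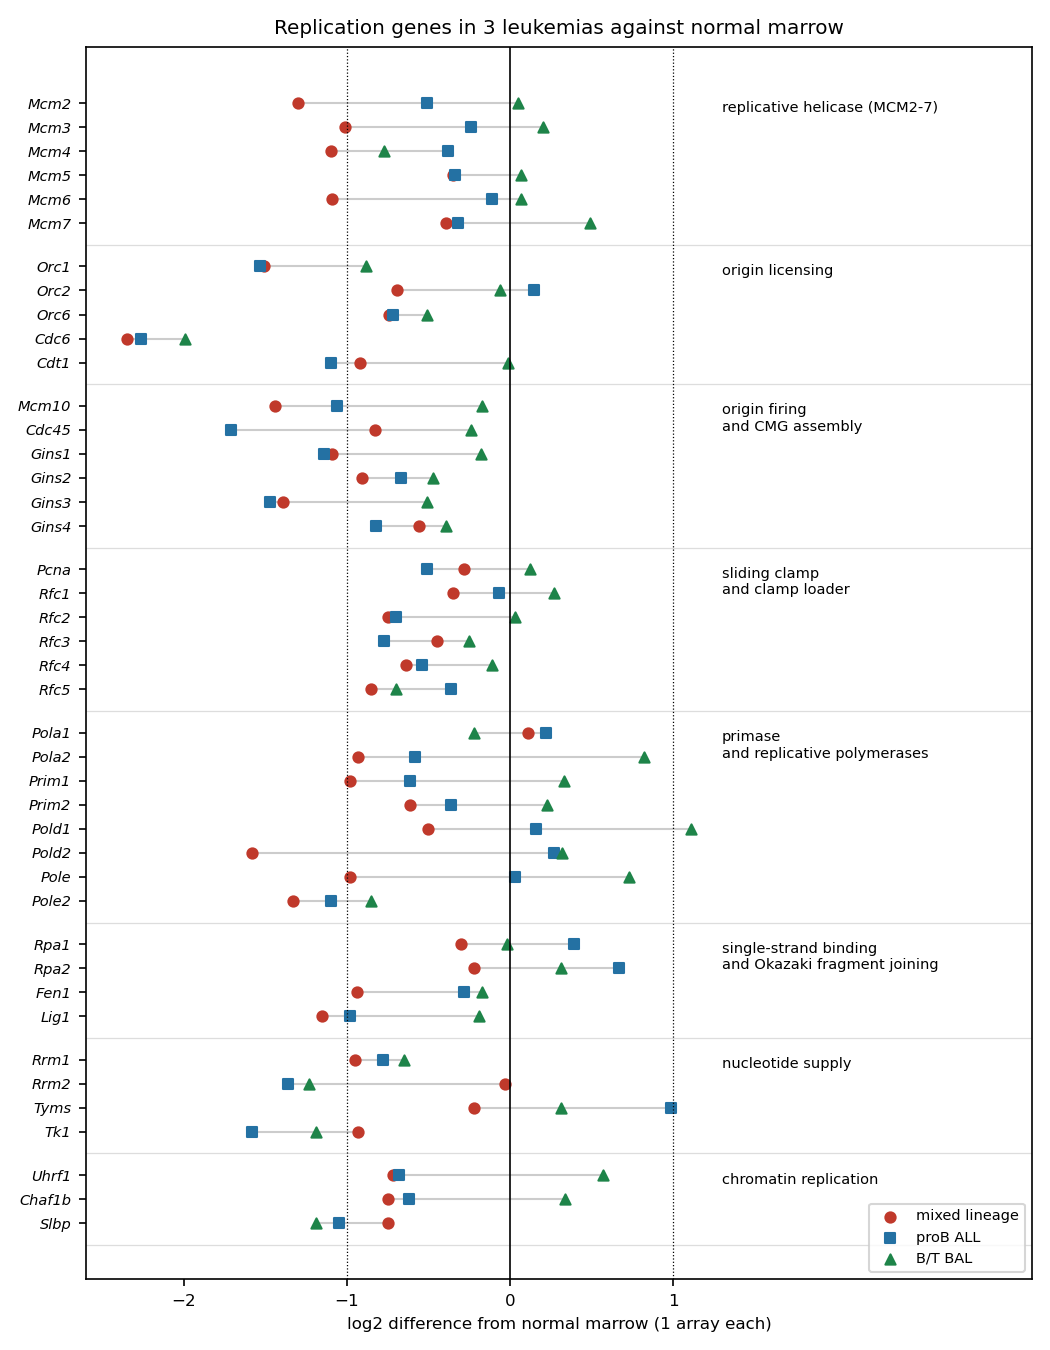
Log2 difference from normal marrow (x axis) of each of the 42 replication genes (y axis, grouped by role), 1 symbol per leukemia array; dotted lines mark 2-fold and each grey bar spans the 3 leukemias. Most circles (mixed lineage) lie left of 0, and Cdc6 lies beyond 2-fold lower in all 3 leukemias.

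The order of the arrays recurred across many of the genes. The mixed lineage array had the lowest signal of the 4 for 30 of the 42 genes, against 27.9% of all tested genes, although with arrays scaled to their 75th percentile this held for 18. The B/T BAL array had the highest of the 3 leukemia signals for 32 genes, against 34.9% of all tested genes, and for 31 under that scaling. The highest signal of the 4 was that of normal marrow for 21 genes (19.2% of all tested genes), of B/T BAL for 16 (28.1%) and of mixed lineage leukemia for 0 (34.7%). The lowest was that of proB ALL for 10 genes (29.9%), of B/T BAL for 2 (23.1%) and of normal marrow for 0 (19.1%).

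The MCM2-7 helicase is the ring that unwinds DNA at the fork. By the brightest probe sets its 6 subunits were each lowest on the mixed lineage array. This held for 4 of 6 with arrays scaled to the 75th percentile. Mcm2 had signals of 2915, 5067, 7493 and 7252 from mixed lineage leukemia to normal marrow. Mcm6 had 9050, 17904, 20371 and 19378 in the same order. Both were thus 2.49-fold and 2.14-fold lower than normal in mixed lineage leukemia and at the normal level in B/T BAL (1.03-fold and 1.05-fold above it). Mcm3, with 7584, 12970, 17646 and 15303 by its brightest probe set, showed the same order. Further Mcm3 probe sets above the floor on all arrays gave -0.06, -1.50, -0.25 and -1.20 in mixed lineage leukemia. They gave 0.15, -0.49, -0.46 and -0.02 in B/T BAL. Those at -0.06 and -0.25 had their lowest signal in proB ALL. By the brightest probe sets Mcm3 and Mcm4 were 2.02-fold and 2.14-fold lower in mixed lineage leukemia. Mcm5 and Mcm7 differed less there, by -0.35 and -0.39. Other Mcm5 probe sets gave -1.29 and -0.13 in mixed lineage leukemia, and another Mcm4 probe set gave -0.67. This ranking of subunits thus rests on the probe set. The median of the 6 genes was -1.05, -0.33 and 0.07 in the 3 leukemias, and the last value was -0.07 under quantile normalization. By its brightest probe set Mcm4 was the exception in B/T BAL, with 11228 against 19241 in normal marrow. The other Mcm4 probe set had 10075 in B/T BAL against 10103 in normal marrow, and so showed no difference.

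Some of these values rest on the probe set. With the mean over its probe sets, 1 of them dim, Mcm6 lay at 0.05 in mixed lineage leukemia. The brightest Mcm7 probe set had 22519, 23581, 41499 and 29466. Another pair of probe sets gave -1.52 and -1.73 in mixed lineage leukemia, and -1.07 and -1.28 in proB ALL. All 4 Mcm7 probe sets lay below normal in mixed lineage leukemia, but in B/T BAL they ranged from -0.26 to 1.29.

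Among the licensing factors Cdc6, the ATPase that brings the helicase to the origin, stood furthest below normal marrow. It had signals of 1853, 1981 and 2391 in the leukemias against 9657 in normal marrow, 5.21-fold, 4.87-fold and 4.04-fold lower. The 3 leukemias lay close together and far from normal. By the brightest probe sets only Cdc6 of the 42 genes was at least 2-fold lower in all 3 (4.45% of all tested genes were). A further probe set each of Fen1 and Rrm1 was also at least 2-fold lower in all 3. Orc1, the regulated subunit of the origin recognition complex, had 526, 518 and 847 against 1596 by its brightest probe set. Another Orc1 probe set gave -1.82, -0.36 and -0.23. The size of the Orc1 difference in both leukemias with AF4-MLL alone thus rests on the probe set. Orc2, a core subunit of that complex, had 1023, 1875 and 1613 against 1686 and so was near normal in these leukemias. Cdt1, which loads the helicase together with Cdc6, had 14692, 12967, 27577 and 27776: it was 1.89-fold and 2.14-fold lower in mixed lineage leukemia and proB ALL and level with normal marrow in B/T BAL. A dimmer Cdt1 probe set gave -1.70, -1.75 and -0.55. Orc6, another subunit, had 2678, 2725, 3148 and 4512.

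The promoters of 4 genes are shown because these had the widest range over the 4 arrays among the genes with an E2F word before their start. The words searched were TTTCCCGC, TTTGGCGC, TTTGCCGC and TTTCGCGC on both strands, within 250 bases before the annotated start, with overlapping words each counted. The sequences are RefSeq's (GRCm38.p6), read 5' to 3' towards the start, and capitals mark the E2F word, which reads as its reverse complement in Cdc6, Orc1 and Gins3.

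Cdc6, chr11:98907901-98908150, plus strand: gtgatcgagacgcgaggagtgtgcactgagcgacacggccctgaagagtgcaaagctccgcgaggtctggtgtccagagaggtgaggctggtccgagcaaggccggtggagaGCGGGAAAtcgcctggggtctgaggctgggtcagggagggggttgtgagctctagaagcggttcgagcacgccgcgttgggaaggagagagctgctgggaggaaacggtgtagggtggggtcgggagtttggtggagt
Orc1, chr4:108579204-108579453, plus strand: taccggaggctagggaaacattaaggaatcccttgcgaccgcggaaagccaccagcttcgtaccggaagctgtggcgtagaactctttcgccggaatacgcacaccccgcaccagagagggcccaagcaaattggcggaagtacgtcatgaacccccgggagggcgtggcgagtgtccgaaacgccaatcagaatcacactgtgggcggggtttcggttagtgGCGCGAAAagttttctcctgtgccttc
Gins3, chr8:95633309-95633558, plus strand: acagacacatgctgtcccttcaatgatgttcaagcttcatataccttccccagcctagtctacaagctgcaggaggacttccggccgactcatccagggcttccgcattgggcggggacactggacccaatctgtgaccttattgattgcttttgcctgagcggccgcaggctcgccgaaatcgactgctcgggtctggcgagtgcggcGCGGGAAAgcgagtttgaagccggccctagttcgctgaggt
Uhrf1, chr17:56304063-56304312, plus strand: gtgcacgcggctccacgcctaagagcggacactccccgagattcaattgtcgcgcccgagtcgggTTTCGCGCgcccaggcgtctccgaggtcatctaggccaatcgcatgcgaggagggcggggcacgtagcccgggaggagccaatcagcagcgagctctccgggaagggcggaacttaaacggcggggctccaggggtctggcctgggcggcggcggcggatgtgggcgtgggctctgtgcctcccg

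The word begins 138 bases before the start in Cdc6, 27 in Orc1, 41 in Gins3 and 185 in Uhrf1. RefSeq promoters matched 36 of the 43 genes, without Gins1, Gins2, Gins4, Mcm4, Pole, Prim2 and Rfc2, and 9 of the 36 held such a word: Mcm5, Mcm6, Mcm7, Orc1, Cdc6, Gins3, Rfc3, Pola1 and Uhrf1. Among all 27025 genes with a RefSeq promoter the share was 2.16%, and among the 11292 of them that were tested 3.53%. The CCAAT box, read by NF-Y, was found in 24 of the 36 (66.7%) against 37.5% of all and 39.9% of tested genes. The CHR word TTTGAA, known from promoters of mitosis genes, was found in 5 of the 36 (13.9%) against 18.3% of all and 13.5% of tested genes. A word in this window is a description of sequence and not a bound site. Genes with an E2F word ranged from Cdc6 (-2.35) to Pola1 (0.11) in mixed lineage leukemia, and so did not share 1 difference.

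The 6 factors that turn the loaded helicase into an active one were lower than normal in all 3 leukemias by their brightest probe sets, by -0.56 to -1.44 in mixed lineage leukemia, -0.67 to -1.71 in proB ALL and -0.17 to -0.51 in B/T BAL. Cdc45, a core part of the active helicase, had 1541, 818, 2357 and 2783. By this brightest probe set Cdc45 was lowest in proB ALL, 3.40-fold below normal and 2.88-fold below B/T BAL. Gins3, 1 of the 4 GINS subunits, had 336, 316, 664 and 965, and Gins1 had 2645, 2556, 5017 and 5709. Both were lowest in mixed lineage leukemia and proB ALL, which were nearly equal, with B/T BAL closer to normal. Mcm10, needed for helicase activation, had 1217, 1598, 3024 and 3397. Gins2 had 1510, 1791, 2065 and 2883, and Gins4 had 3894, 3240, 4376 and 5766. In mixed lineage leukemia and proB ALL these subunits differed less than Gins1 and Gins3, by -0.56 to -0.91. In B/T BAL they lay at -0.47 and -0.39, between Gins3 (-0.51) and Gins1 (-0.18). With the mean over probe sets the medians of the 6 genes were -0.37, -0.82 and 0.01, and 5, 6 and 3 genes were lower. Further probe sets above the floor on all arrays gave 0.97 for Cdc45, 0.71 for Gins3 and 0.10 for Gins2 in mixed lineage leukemia, and 1.09 for Cdc45 and 0.56 for Gins2 in B/T BAL. In proB ALL the further Cdc45 probe set gave 0.18, with 273 against 235 in normal marrow. Those of Gins3 and Gins2 gave -0.35 and -0.38 there.

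**Figure D2:**
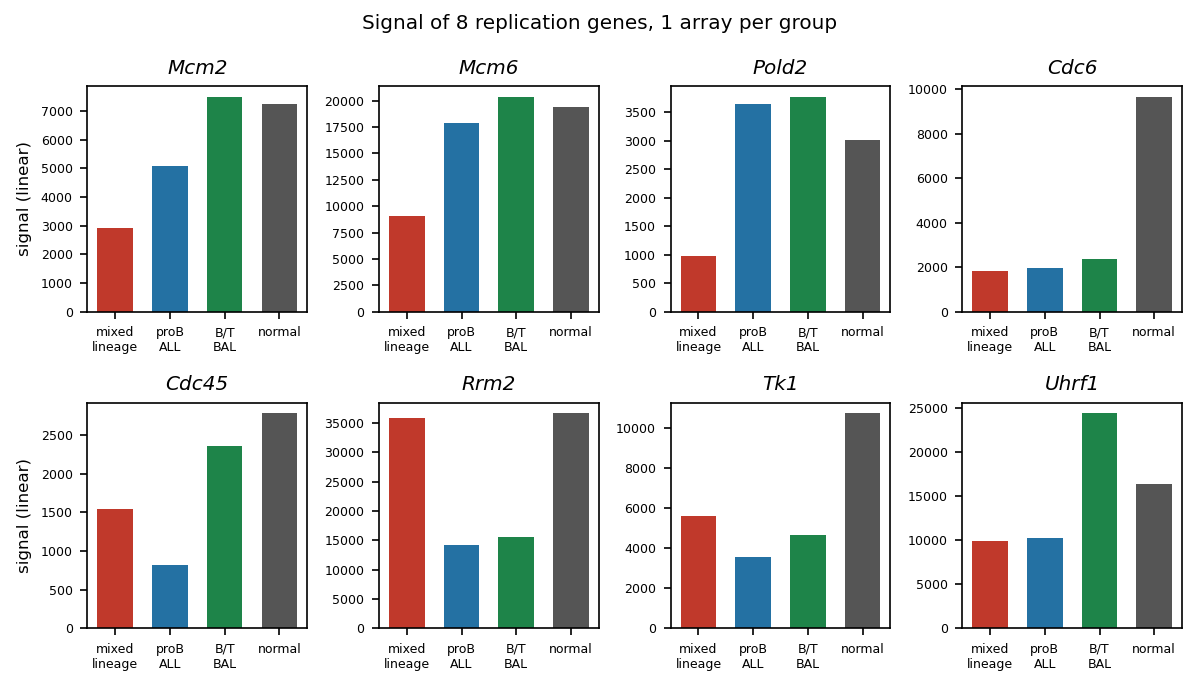
Signal (linear scale, y axis from 0) of 8 replication genes on the 4 arrays, 1 bar per array, so there is no error bar. Mcm2, Mcm6 and Pold2 are lowest in mixed lineage leukemia, Cdc6 is low in all 3 leukemias, Cdc45 is lowest in proB ALL, and Rrm2 is near normal in mixed lineage leukemia alone.

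The clamp and its loader differed less. Pcna, the sliding clamp, had 32939, 28044, 43507 and 40077, from 1.43-fold lower to 1.09-fold higher. The 5 subunits of replication factor C, which loads the clamp, differed by -0.85 to 0.27 over the 3 leukemias. Rfc5 had 3722, 5268, 4129 and 6753, and Rfc1, the large subunit, had 2902, 3530, 4478 and 3704, so 1 subunit was lower in all 3 leukemias and the other was highest in B/T BAL. By the brightest probe sets 0 of these 6 genes were at least 2-fold apart from normal marrow on any leukemia array. Another Rfc1 probe set had 1519, 1252, 1868 and 2782, with log2 differences of -1.12 for proB and -0.56 for B/T.

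Primase and the replicative polymerases differed between leukemias, with medians of -0.95 for mixed lineage, -0.16 for proB and 0.33 for B/T. Pold2, the second subunit of polymerase delta, had 970 in mixed lineage leukemia against 3648, 3771 and 3013 on the other arrays. Only the mixed lineage array was low, 3.11-fold below normal. Pole, the catalytic subunit of polymerase epsilon on the leading strand, had 1735, 3550, 5781 and 3475. Pola2, a subunit of polymerase alpha, had 1174, 1502, 4057 and 2277, and was 3.46-fold higher in B/T BAL than in mixed lineage leukemia. Prim1, the catalytic subunit of primase, had 5544, 7178, 13892 and 11004, with B/T BAL again the highest and mixed lineage leukemia the lowest. Prim2, the large primase subunit, had 2212, 2644, 4008 and 3400 in the same order, while a second Prim1 probe set lay at -0.15 in B/T BAL.

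Pold1, the catalytic subunit of polymerase delta, was the 1 gene at least 2-fold higher than normal in a leukemia, with 2877, 4573, 8885 and 4090 and so 2.17-fold higher in B/T BAL. That probe set is marked for cross-hybridisation, and the other Pold1 probe set had 1628, 2272, 4737 and 4060, a difference of 0.22 in B/T BAL. Pole2, the second subunit of polymerase epsilon, was lower in all 3 leukemias, at 1969, 2315 and 2777 against 5031. Pola1, the catalytic subunit of polymerase alpha, hardly differed, with 2711, 2938, 2161 and 2517.

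Of the genes for single-strand binding and Okazaki fragment joining, Rpa1 and Rpa2, subunits of the single-strand binding protein RPA, were highest in proB ALL. Rpa2 had 4117, 7692, 5971 and 4819, 1.60-fold above normal in proB ALL, but its other probe set gave -0.84 there. Rpa1 had 17324, 27894, 21060 and 21343. Lig1, the ligase that seals fragments, had 5449, 6130, 10665 and 12148, low in mixed lineage leukemia and proB ALL alone. Fen1, the flap nuclease, had 3663, 5827, 6271 and 7063. A second Fen1 probe set had 2230, 4495, 4159 and 9457, at least 2-fold lower in all 3 leukemias.

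The nucleotide-supply genes followed another order: their medians were -0.58, -1.07 and -0.92 in the 3 leukemias. Rrm2, the S-phase subunit of ribonucleotide reductase, which makes deoxynucleotides, had 35855, 14224, 15563 and 36676. Mixed lineage leukemia was 1.02-fold below normal marrow, and the leukemias with AF4-MLL alone were 2.58-fold and 2.36-fold lower. The other Rrm2 probe sets kept that order among mixed lineage leukemia and the others, with -0.53 and -0.87 for mixed lineage, -2.25 and -2.38 for proB and -1.79 and -2.32 for B/T. Tk1, the thymidine salvage kinase, had 5627, 3576, 4676 and 10762, low in all 3. Rrm1, the large subunit, had 8552, 9612, 10553 and 16543, lower in all 3. Another Rrm1 probe set above the floor on all arrays gave -1.23, -1.96 and -1.91, but a dim probe set gave 1.55 in mixed lineage leukemia. For Tyms no probe set was bright: the brightest had 362, 905, 547 and 432, and its other 3 probe sets gave between -0.90 and -0.61 in proB ALL where the brightest gave 0.99.

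In the chromatin group Uhrf1, which directs DNA methylation to new DNA, had 9931, 10250, 24432 and 16436, so B/T BAL alone lay above normal. A dimmer Uhrf1 probe set had 848, 677, 1418 and 1934, with B/T BAL below normal. Chaf1b, a subunit of the histone chaperone CAF-1, had 1194, 1311, 2607 and 2043. Slbp, which binds the stem-loop of histone messages, had 14577, 11841, 10774 and 24579 by its brightest probe set. Another Slbp probe set had 7814, 5576, 6478 and 1205, higher by 2.65, 2.16 and 2.38, so Slbp has no single direction here.

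**Figure D3:**
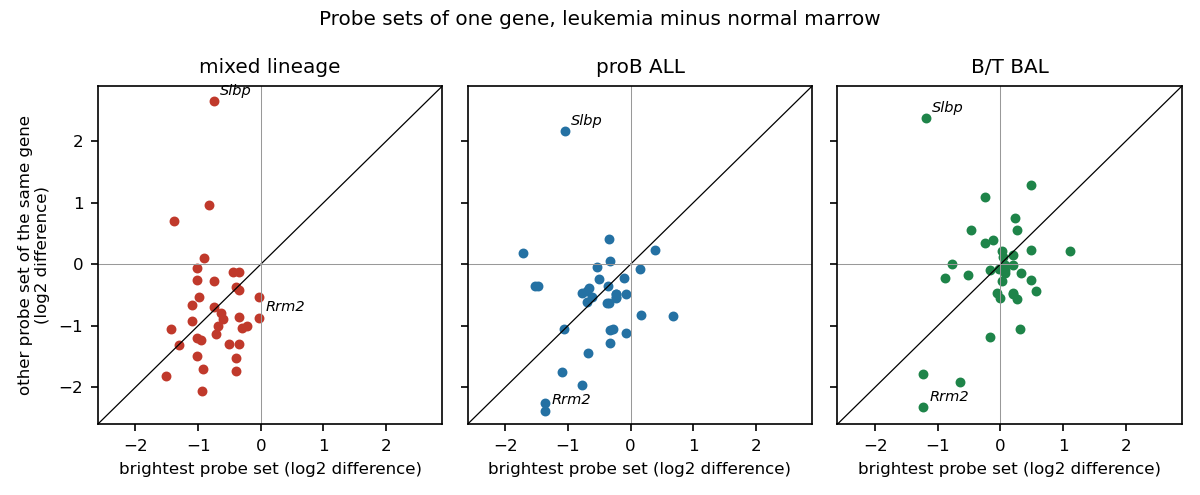
Each point is a further probe set of a replication gene, above the floor on all 4 arrays: its log2 difference from normal marrow (y axis) against that of the gene's brightest probe set (x axis), 1 panel per leukemia, with the line of equality. Slbp lies far off the line in all 3 panels, and points of B/T BAL scatter around 0.

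Probe sets of 1 gene are a check on these differences, though not replicates. Of 27 genes with at least 2 probe sets above the floor on all arrays, all probe sets of a gene lay on the same side of normal marrow for 23, 20 and 12 genes in the 3 leukemias. Slbp alone had probe sets at least 2-fold apart from normal in opposite directions, in proB ALL and B/T BAL. With dim probe sets counted, so had Mcm6 and Rrm1 in mixed lineage leukemia. Over all 78 such probe sets the medians were -0.86, -0.54 and -0.09.

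Set against one another, the leukemias had median differences over the 42 genes of -0.62 between mixed lineage leukemia and B/T BAL, -0.17 between mixed lineage leukemia and proB ALL and -0.43 between proB ALL and B/T BAL. Against B/T BAL mixed lineage leukemia was at least 2-fold lower for 11 genes (background 21.2% of all tested genes) and at least 2-fold higher for 1, Rrm2 (26.3%). The 11 were Mcm2, Mcm3, Mcm6, Mcm10, Pola2, Prim1, Pold1, Pold2, Pole, Uhrf1 and Chaf1b, by -1.09 to -1.90. Against proB ALL, mixed lineage leukemia was at least 2-fold lower for 3 genes, Pold2, Pole and Tyms (15.7%), and higher for Rrm2 alone (27.3%; 1169 of the 8835 genes above the floor on all arrays). ProB ALL was at least 2-fold lower than B/T BAL for 4 genes, Cdt1, Cdc45, Pola2 and Uhrf1 (15.9%), and higher for 0 (10.5%). With arrays scaled to the 75th percentile the median between mixed lineage leukemia and proB ALL turned to 0.07. The medians against B/T BAL were then -0.45 for mixed lineage and -0.48 for proB, with 9 genes at least 2-fold lower in each. The count of 11 genes (26.2%) lay near the background, and the counts of 3 and 4 lay below it.

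In limma's test of the 3 leukemias against normal marrow, 0 of the 42 genes passed an adjusted p of 0.05, as did 0 of all 14012 genes (0% called). Cdc6 had a fitted difference of -2.20 (SE 0.65, 95% interval -3.70 to -0.70; lower in 3 of 3 leukemias) and limma's adjusted p = 0.82. It was the 1 gene of the 42 with an unadjusted p under 0.05, in a background of 2.63% lower and 0.314% higher of all tested genes. Between both fusions and AF4-MLL alone 0 of the 42 genes and 0 of all genes passed (0% called). Pold2, with -1.88 (SE 0.51, 95% interval -3.20 to -0.56), was the 1 gene with an unadjusted p under 0.05, in a background of 5.47% lower and 12.3% higher, and had limma's adjusted p = 0.19. Rrm2 had 1.27 (SE 0.53, 95% interval -0.09 to 2.62; adjusted p = 0.307 in limma). The spread in these tests is that between leukemias of different immunophenotype, with 2 and 1 residual degrees of freedom.

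Of 55 further replication genes, listed apart from the 43, 54 were tested, and limma passed 0 of them in either direction, as 0 of all tested genes. At least 2-fold lower were 13, 18 and 11 in the 3 leukemias, against 15.2%, 18.7% and 17.7% of all tested genes, so the 20.4% in B/T BAL lay near the background. At least 2-fold higher were 2, 3 and 5, against 18.8%, 11.3% and 15.4%. The medians of the 54 genes were -0.37, -0.67 and -0.14. Lowest of the 4 arrays on proB ALL were 25 of them (46.3%, against 29.9% of all tested genes). On mixed lineage leukemia 18 were lowest (33.3%), near the 27.9% of all tested genes. E2f2, an activating E2F factor, had 4846, 1989 and 2832 against 20460, low in all 3. E2f8, a repressive E2F factor, had 7724, 1592 and 1990 against 9494, and Rb1, the retinoblastoma protein that restrains E2F, had 8116, 2692 and 1680 against 9634. E2f8 and Rb1 thus lay at -0.30 and -0.25 in mixed lineage leukemia and at -1.82 to -2.54 in the leukemias with AF4-MLL alone, as Rrm2 was near normal in the first and low in the others. Ccne2, a cyclin of S-phase entry, had 3239, 1278 and 938 against 4986. Fbxo5, an inhibitor of the anaphase-promoting complex, had 2573, 1538 and 2348 against 7019. The highest were Shmt1, a folate enzyme that feeds thymidylate synthesis, with 846, 3492 and 3877 against 479, Mcmbp, an MCM-binding protein, with 4783, 5460 and 4869 against 1910, Atr (a replication stress kinase), Dctpp1 (a nucleotide pyrophosphatase) and Orc4 (an origin recognition subunit).

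Of 20 listed mitosis genes 19 were tested, with medians of -0.53, -1.16 and -0.45, lowest in proB ALL as for the 54 further replication genes. At least 2-fold lower were 2 (10.5%), 11 (57.9%) and 3 (15.8%) of them, against 15.2%, 18.7% and 17.7% of all tested genes, so the first and last shares lay below the background. Lower by any amount were 18, 19 and 18 of the 19, against 46.9%, 55.7% and 47.9% of all tested genes. In all 3 leukemias 17 were lower (19.2% of all tested genes). Cdk1, the kinase of mitotic entry, had 14507, 4428, 8474 and 13333. Mki67, a marker of cycling cells, had 21304, 19940, 22166 and 28986, and Top2a, the topoisomerase that untangles chromosomes, had 18235, 13164, 15048 and 25151. Lowest of the 4 arrays on proB ALL were 16 of 19 mitosis genes and 10 of the 42 replication genes (29.9% of all tested genes). On mixed lineage leukemia 2 and 30 were lowest (27.9% of all tested genes). The differences between the lists were not tested.

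**Figure D4:**
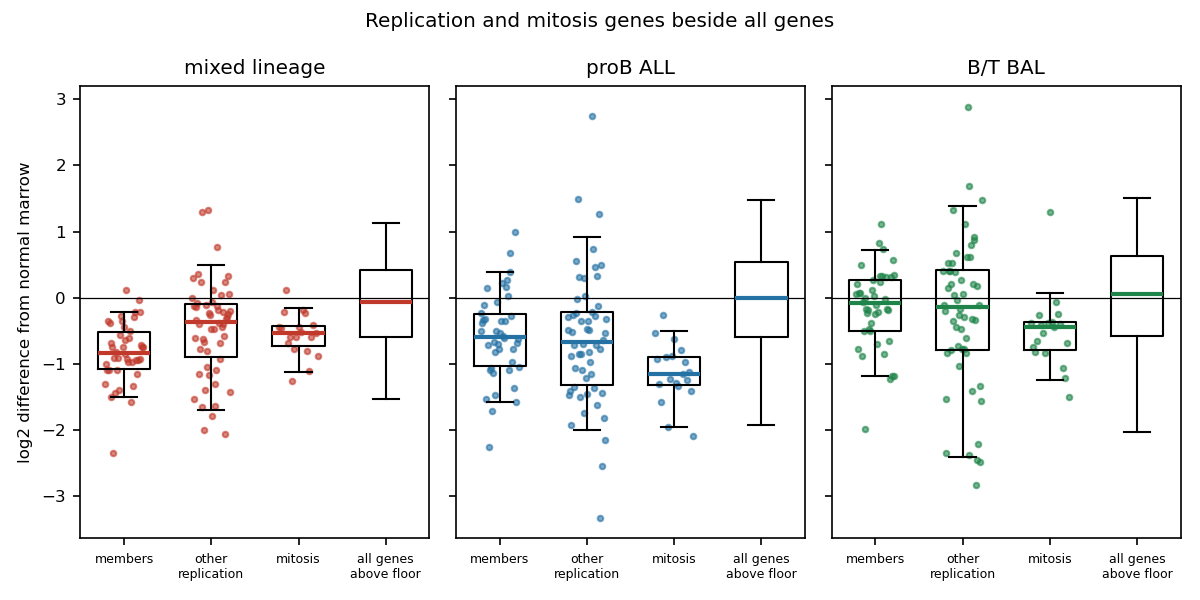
Log2 difference from normal marrow (y axis) in each leukemia (panels) for the 42 replication genes (members), the 54 other replication genes, the 19 mitosis genes and all 8835 genes above the floor on all arrays; points are genes, boxes the quartiles with the median in colour and whiskers the 5th and 95th percentiles. The replication genes have medians of -0.84, -0.60 and -0.09, and the mitosis genes -0.53, -1.16 and -0.45.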

How the data were processed

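The authors deposited a linear intensity (signal) for each probe set, and the submitters' processing notes name MAS5 as the tool. No source used here gives its settings, and detection calls were not used. The members and gene lists were chosen with earlier results of these data known. The 64 control probe sets were left out. Tests used log2(signal + 51.4), with the pseudocount at the 25th percentile, which understates changes of dim genes. For a gene with several probe sets, the brightest by mean log2 stood for it. The 14012 genes above the floor (189, the median) on at least 1 array were tested with limma 3.58.1 in R 4.3.3 (lmFit, eBayes with an intensity trend; Benjamini-Hochberg over all tested genes), with a lone array assumed to vary like the others. The fit was tested on simulated data. Pairs of arrays were set side by side by 2-fold counts, with no test; the number of arrays limits the precision. Further replication genes are named by the 5 highest and 5 lowest medians over the leukemias, and cell markers by brightness, apart from those named because they lay below the floor. Alternatives covered pseudocount, normalization, filter, floor, probe-set choice, variance model and leaving out each leukemia.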

Additional observations from a re-analysis of the deposited data

Results flagged for a closer look

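11 genes lay on opposite sides of normal marrow in a pair of leukemias and at least 2-fold apart between them. How many of all tested genes met this rule was not counted, so the 11 cannot be set against a background. Each value is 1 array against the shared normal array, and the difference was not tested. Between mixed lineage leukemia and B/T BAL the log2 difference was -1.35 for Mcm2, -1.21 for Mcm3, -1.17 for Mcm6, -1.75 for Pola2, -1.32 for Prim1, -1.61 for Pold1, -1.90 for Pold2, -1.71 for Pole, -1.29 for Uhrf1 and -1.09 for Chaf1b. Mixed lineage leukemia and proB ALL differed in this way for Pold2 (-1.86), Pole (-1.01) and Tyms (-1.21), and proB ALL and B/T BAL for Pola2 (-1.40) and Uhrf1 (-1.25). Mcm2, Mcm3 and Mcm6 lay within 0.20 of normal marrow in B/T BAL and Pole lay at 0.03 in proB ALL, so these opposite signs rest on small values. A second Prim1 probe set gave -0.15 in B/T BAL and so no opposite sign, and the other Pold1 probe set gave 0.22, the other Uhrf1 probe set -0.43. Further Mcm3 probe sets gave -0.49, -0.46, -0.02 and 0.15 in B/T BAL, and a further Mcm6 probe set -0.09. Further, dim Tyms probe sets gave 1.91, 1.93 and 0.33 between mixed lineage leukemia and proB ALL, the other direction.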

How the results depend on the processing

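The medians of the 42 genes against normal marrow kept their sign under every alternative, from -0.89 to -0.69 for mixed lineage, -0.69 to -0.52 for proB and -0.14 to -0.02 for B/T. With the mean over probe sets the number at least 2-fold lower was 7 for mixed lineage and 5 for proB. Beside the shares of all tested genes in the main setting, the first lay near the background and the second below it. The mean over probe sets also turned Mcm6 in mixed lineage leukemia to 0.05 and Slbp to 0.53 for proB and 0.61 for B/T. The cause was not tested. Scaling to the 75th percentile turned the median between mixed lineage leukemia and proB ALL to 0.07, gave 1 gene at least 2-fold lower there (also 1 with a pseudocount at the 50th percentile) and 9 between proB ALL and B/T BAL. It moved the median of all tested genes in mixed lineage leukemia from 0.08 to 0.23. In limma 0 of the 42 genes passed under any alternative, also without each leukemia in turn, where the median fitted difference ranged from -0.69 to -0.28. Over all genes limma passed 0 in the main setting, 23 lower with robust eBayes, 15 lower with a pseudocount at the 50th percentile, 4 higher and 67 lower without proB ALL, and 4 higher and 109 lower without B/T BAL; between the fusions it passed 2459 higher and 62 lower with signals raised to the floor, where genes at the floor on both AF4-MLL arrays have no spread. No paired analysis was possible because each group held 1 array. Signals near the floor limit dim probe sets, such as those of Tyms.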
